A study of Mus musculus with 18 samples.

Results

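The genes Dazl, Ddx4, Mael, Sycp1, Sycp3, Tdrd1, Stk31, Slc25a31 and Brdt are transcribed mainly in germ cells of the mouse and are kept silent in most somatic cells. These 9 genes were taken by name, out of the 22367 protein-coding genes that GENCODE annotates on mm9, and all 9 were found there. Each was examined over its gene body with 5 kb on both sides, called the window, and at its promoter, here the 1 kb on both sides of the annotated gene start. The data were peak lists of 6 ChIP-seq libraries, out of 18 samples of a study on KRAB zinc finger protein (KZFP) genes and their control by KAP1. H3K9me3 and H3K27ac were profiled in mouse embryonic fibroblasts (MEFs) of the C57BL/6 background, either WT cells that carry the Kap1 loxP/loxP alleles or Kap1 KO cells. KAP1 and SETDB1 were profiled in Hepa 1.6, a hepatoma line established from a liver tumour of a C57L mouse and labelled WT. Each list was deposited for 1 library, so that no spread between replicates can be given and no test was run. For the RNA-seq part of the study a Kap1 KO clone was grown for many passages beside its non-excised counterpart, and the sources used here do not state whether the ChIP-seq cells were that clone. A difference between the WT and Kap1 KO lists therefore compares 2 libraries, and genotype, culture history and library cannot be told apart.

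KAP1, also called TRIM28, is a corepressor brought to DNA by KZFPs, and SETDB1 is the histone methyltransferase that KAP1 recruits to deposit H3K9me3, a mark of heterochromatin. H3K27ac marks active promoters and enhancers. The promoters of many germline genes are rich in CpG dinucleotides and are silenced in somatic cells by DNA methylation, and in early embryonic cells also by a Polycomb complex that holds the DNA-binding proteins MGA, MAX and E2F6. MGA and MAX recognise the E-box CACGTG, and proteins of the E2F family recognise sites with the core GCGGGA. RNA levels and DNA methylation were not part of the lists, so that silence of the 9 genes is the label under which they were chosen and was not measured here.

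The genes belong to several steps of germ cell life. Dazl encodes an RNA-binding protein that controls translation in germ cells, and Ddx4, also called Mvh or Vasa, an RNA helicase of the germ granules (nuage). Mael and Tdrd1 act in the piRNA pathway, which silences transposable elements (TEs) in the male germline. Sycp1 and Sycp3 encode proteins of the synaptonemal complex, which holds homologous chromosomes together in meiosis. Brdt encodes a testis-specific bromodomain protein that reads acetylated histones in spermatocytes and spermatids, Slc25a31 the ADP/ATP carrier of the mitochondria of male germ cells, and Stk31 a kinase-like protein with a Tudor domain.

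On mm9, Dazl lies at chr17:50418719-50432924 on the minus strand, Ddx4 at chr13:113388541-113442518 on the minus strand, and Mael at chr1:168131516-168168875 on the minus strand. Sycp1 lies at chr3:102622422-102740023 on the minus strand and Sycp3 at chr10:87922314-87935981 on the plus strand. Tdrd1 lies at chr19:56900699-56944502, Stk31 at chr6:49345603-49419500, Slc25a31 at chr3:40512777-40529515 and Brdt at chr5:107760178-107816077, all on the plus strand. The genes span between 13668 bp (Sycp3) and 117602 bp (Sycp1).

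The promoter sequence of the 9 genes was read from mm9, from 250 bases before to 50 bases after the gene start. The E-box CACGTG, which reads the same on both strands, was found in 8 of the 9 promoters, all but that of Dazl. Over 22362 protein-coding genes with known sequence in this stretch, 7.79% held it. These are the stretches around the E-box (in Sycp3, the one farther from the start), shown to let its neighbourhood be compared, 5′ to 3′ on the strand of each gene, with the E-box in capitals. Their positions are chr13:113442527-113442562 (Ddx4), chr1:168169078-168169113 (Mael), chr3:102740097-102740132 (Sycp1), chr10:87922253-87922288 (Sycp3), chr19:56900673-56900698 (Tdrd1), chr6:49345468-49345503 (Stk31), chr3:40512685-40512720 (Slc25a31) and chr5:107760120-107760155 (Brdt).
Ddx4: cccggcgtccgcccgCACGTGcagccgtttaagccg
Mael: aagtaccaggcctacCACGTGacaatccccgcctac
Sycp1: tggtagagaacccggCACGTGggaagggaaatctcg
Sycp3: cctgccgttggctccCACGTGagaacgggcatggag
Tdrd1: gggtggggctgcgcgCACGTGggagt
Stk31: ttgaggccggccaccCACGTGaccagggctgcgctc
Slc25a31: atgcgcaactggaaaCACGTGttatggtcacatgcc
Brdt: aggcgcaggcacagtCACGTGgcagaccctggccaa

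Apart from the E-box itself the flanks of the 8 stretches differed. Counted back from the gene start, the first base of the E-box lay at -29 in Ddx4, -94 in Sycp1, -11 in Tdrd1, -120 in Stk31, -77 in Slc25a31, -43 in Brdt and -223 in Mael. Sycp3 was the member with a pair of E-boxes, at -46 and -25, of which the first is shown above. The core GCGGGA, searched on both strands, was found in 5 of the 9 promoters against 24.4% of all genes. It started at -136 in Ddx4, at -143 and 12 in Mael, at 3 in Sycp1, at -129 in Sycp3 and at 37 in Slc25a31, and it overlapped no E-box. The same 5 genes held both motifs, which 2.52% of all genes did. The 150 bases before the start of Ddx4 (chr13:113442519-113442668, minus strand) and of Sycp3 (chr10:87922164-87922313, plus strand) are shown because both motifs fall in them, with the motifs in capitals.
Ddx4: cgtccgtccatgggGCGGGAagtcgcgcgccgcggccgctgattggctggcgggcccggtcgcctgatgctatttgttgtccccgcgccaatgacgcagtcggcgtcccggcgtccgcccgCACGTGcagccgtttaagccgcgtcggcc
Sycp3: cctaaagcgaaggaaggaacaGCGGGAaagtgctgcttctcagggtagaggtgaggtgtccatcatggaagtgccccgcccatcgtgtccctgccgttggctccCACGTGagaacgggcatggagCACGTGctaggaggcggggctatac

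**Figure D1:**
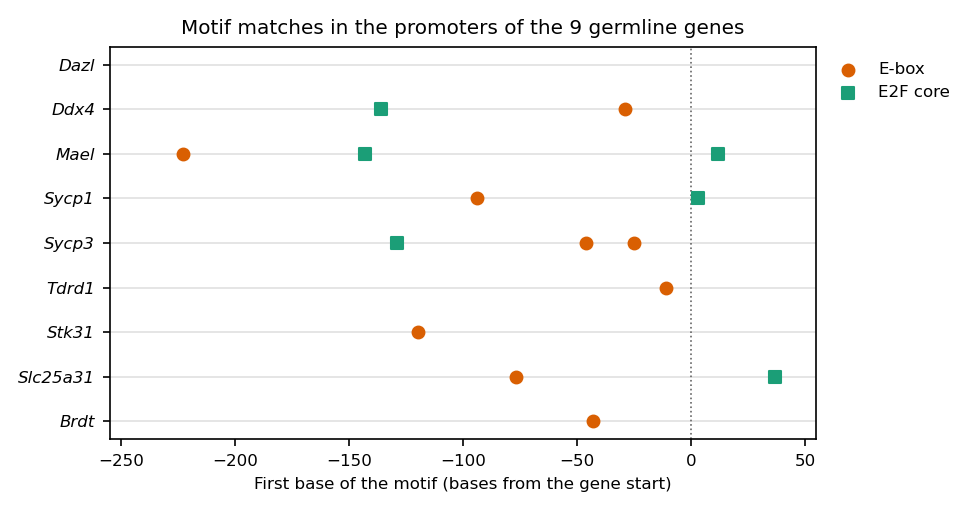
First base of each E-box (circles) and E2F core (squares), in bases from the gene start (dotted line), in the promoters of the 9 germline genes. All genes but Dazl have an E-box before the start, and 5 genes also have an E2F core.

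The 9 promoters were rich in CpG. The ratio of observed to expected CpG was 0.98 in Ddx4, 0.87 in Sycp1, 0.83 in Dazl, 0.78 in both Mael and Slc25a31, 0.75 in Stk31, 0.74 in Brdt, 0.73 in Tdrd1 and 0.62 in Sycp3. Their median was 0.78, against a median of 0.53 over all genes, and all 9 lay above that value. The number of CpG dinucleotides in the 300 bases ran from 13 (Sycp3) to 38 (Ddx4), with a median of 21 against 11 over all genes. A motif with a CpG inside it is more frequent in such promoters, so the motif shares were also taken over the 7694 genes whose ratio lay between those of Sycp3 and Ddx4. There, 11.1% held the E-box, 42.3% the E2F core and 4.65% both. Of the 855 genes there with an E-box, 41.9% also held the E2F core, against 5 of the 8 members with an E-box. The share with both motifs thus mostly repeats that of the E-box. A match says that these letters are present and does not show that a factor was bound.

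**Figure D2:**
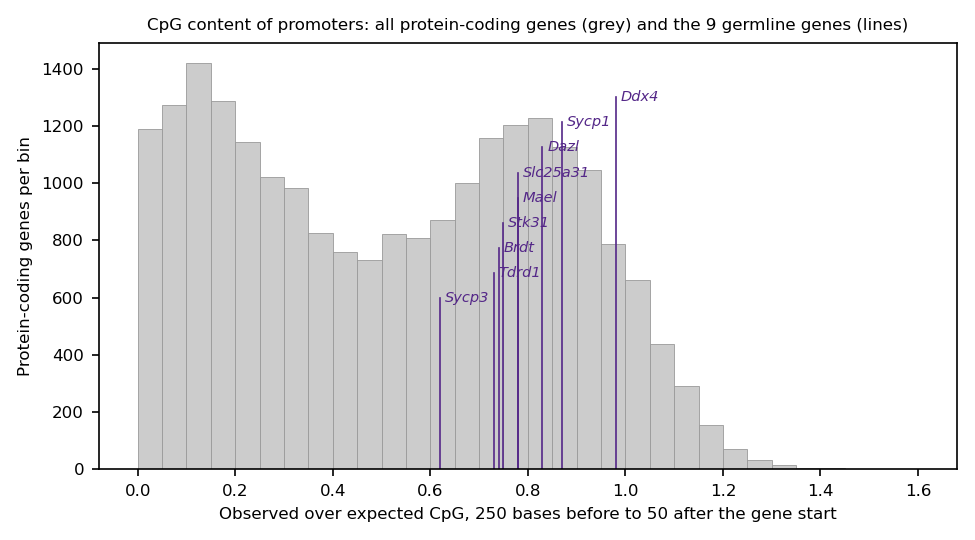
Number of protein-coding genes (grey bars) by observed over expected CpG of the promoter, from 250 bases before to 50 bases after the gene start, with the 9 germline genes as labelled lines whose heights carry no value. The 9 genes lie between 0.62 and 0.98, above the median of all genes at 0.53.

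A peak of a list was assigned to a gene when both shared at least 1 bp. Scores are those deposited by the authors, for which MACS uses a multiple of the negative log10 of the p-value, and a score ranks peaks within its own list. The H3K9me3 lists held 14425 peaks in WT and 4319 in Kap1 KO MEFs, and their median scores were 79.9 and 65.61. The H3K27ac lists held 36275 and 36436 peaks, the KAP1 list 13366 and the SETDB1 list 2957. All SETDB1 entries were identical to entries of the KAP1 list in position and score. The SETDB1 list may therefore be KAP1 peaks that overlap SETDB1, and not a separate call. The lists do not tell the depth of the libraries, and signal too weak for the peak caller leaves no entry. In the H3K27ac lists, 10 of 10 fibroblast markers had a promoter peak in WT and 9 of 10 in Kap1 KO (not Pdgfra), and 0 of 6 markers of pluripotent or early germ cells had one in either list. Endothelial markers had a peak at 2 of 4 promoters in both lists, epithelial markers at 1 of 4 in WT and 0 of 4 in Kap1 KO, and blood markers at 1 of 3 in both. The gene that encodes KAP1, Trim28, had an H3K27ac peak at its promoter in both genotypes, so the peak lists do not check the deletion.

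None of the 9 promoters carried an H3K27ac peak, in WT or in Kap1 KO MEFs. Over all protein-coding genes, the share of promoters with one was 52.0% in WT and 50.6% in Kap1 KO. Among the 7694 genes in the CpG range of the members the shares were 83.3% and 81.2%. Of the 1741 genes whose promoter holds the E-box, 67.9% had an H3K27ac peak in WT and 66.5% in Kap1 KO. Whether the E-box or the CpG content bears on the mark was not tested. Genes both in that CpG range and with an E-box numbered 855, of which 83.0% and 81.2% had one. The count of 0 in the 9 genes stood beside a high share in genes of like CpG content, and it was 0 in both genotypes. The 9 were chosen as genes silent in somatic cells and H3K27ac marks active promoters, so the choice itself favours a low count.

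**Figure D3:**
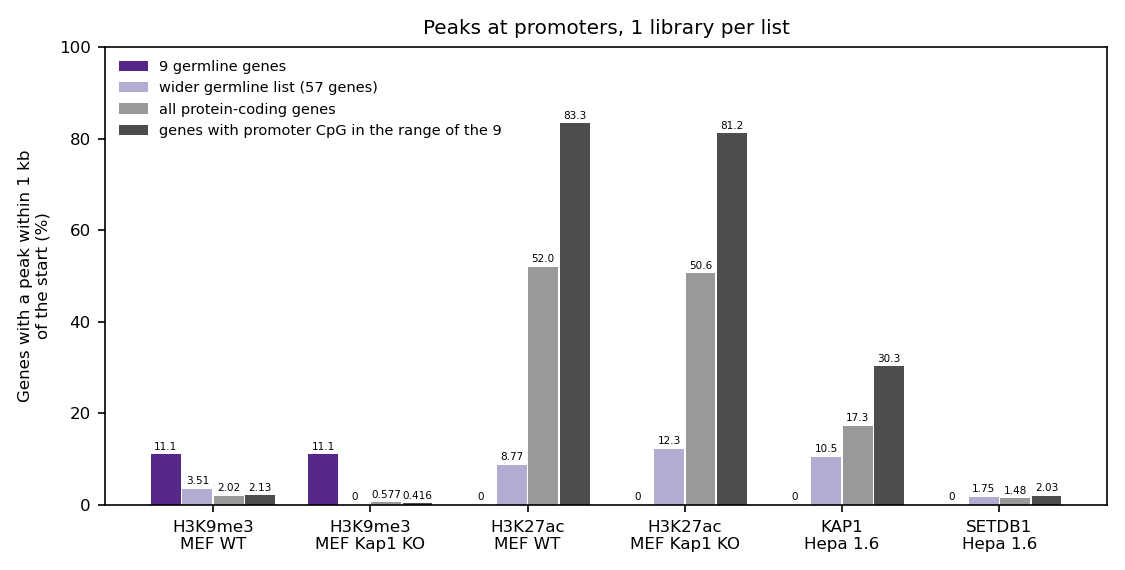
Share of promoters (1 kb on both sides of the gene start, in percent) with a peak of each of the 6 lists, for the 9 germline genes, 57 genes of a wider germline list, all protein-coding genes and the genes in the promoter CpG range of the 9. The 9 genes stand at 0 in 4 lists and at 1 gene, Dazl, in both H3K9me3 lists.

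Over the windows, H3K27ac was found at 2 of the 9 genes in WT and at the same 2, Tdrd1 and Brdt, in Kap1 KO. The share of all genes was 64.4% in WT and 64.4% in Kap1 KO. Within the 9956 genes whose window is as long as those of the members, it was 77.5% and 77.4%. Neither gene had the mark near its main start.

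In Tdrd1, the H3K27ac peak lay before the gene, at chr19:56894828-56897729 in WT and chr19:56894986-56897562 in Kap1 KO, and stood at a score of 3100 in both lists, a value shared by 9975 and 7710 peaks. Its nearest edge was 2.97 kb from the start in WT and 3.14 kb in Kap1 KO. In both lists it covered the start of the neighbouring gene A630007B06Rik, at position 56896680 on the minus strand, so that the mark in the Tdrd1 window sat at the promoter of another gene.

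In Brdt, the H3K27ac peak lay inside the gene, at chr5:107788536-107789756 (1221 bp) in WT and chr5:107788448-107789790 (1343 bp) in Kap1 KO. Its score was 285.71 in WT, above 35.6% of that list, and 570.57 in Kap1 KO, above 49.9% of that list. The peak covered the start of Brdt-002, annotated as a processed transcript, 28678 bp into the gene, and exons of the full-length Brdt-001. Without replicates the difference between these scores was not tested, and scores of both lists depend on the depth of their libraries. The main start of Brdt had no peak of any list.

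All H3K27ac peaks of the 9 windows were shared between genotypes, 2 of 2 in WT and 2 of 2 in Kap1 KO. Over the whole lists, 28006 of 36275 WT peaks, or 77.2%, shared at least 1 bp with a Kap1 KO peak.

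From the gene start, the nearest H3K27ac peak in WT was 52.7 kb away in Dazl, 7.64 kb in Ddx4, 15.0 kb in Mael, 56.2 kb in Sycp1 and 6.83 kb in Sycp3. It was 2.97 kb away in Tdrd1, 26.8 kb in Stk31, 35.3 kb in Slc25a31 and 28.4 kb in Brdt. In Kap1 KO the distances of 7 genes differed by less than 0.5 kb from those in WT. In Dazl the nearest peak was 210 kb away and in Sycp3 43.2 kb, since the WT peak near Sycp3, with a score of 114.12, and that near Dazl, with a score of 585.23, had no counterpart in the Kap1 KO list. The median over all genes was 0 kb in WT and 0.646 kb in Kap1 KO, and all 9 members lay farther than that in both.

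**Figure D4:**
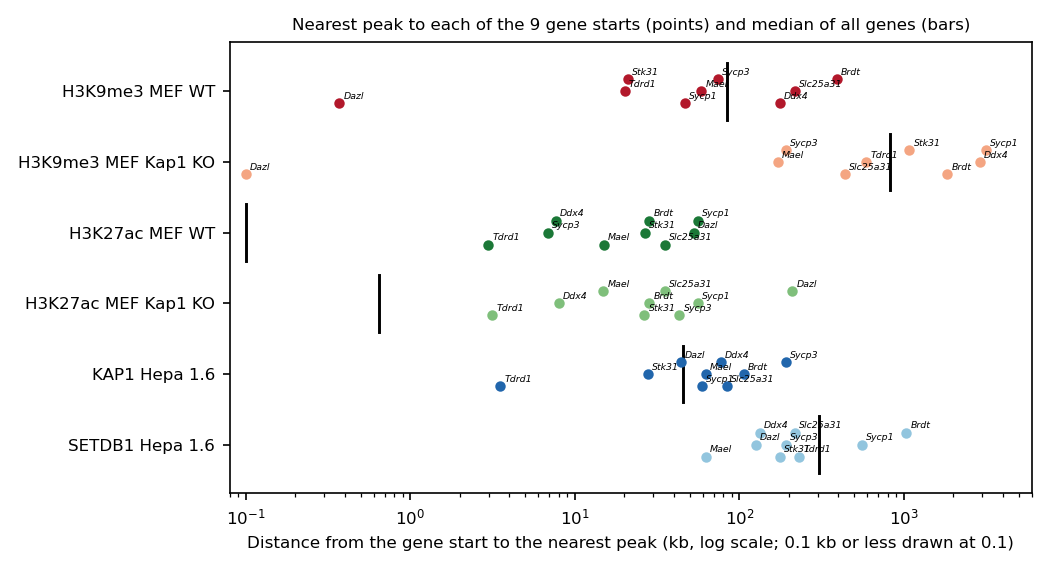
Distance in kb (log scale) from each of the 9 gene starts to the nearest peak of the 6 lists, with the median of all protein-coding genes as a bar. Points and bars at 0.1 kb stand for 0.1 kb or less. All 9 genes lie to the right of the bar for H3K27ac in both genotypes.

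H3K9me3 in WT MEFs was found in the windows of 4 of the 9 genes, Dazl, Sycp1, Tdrd1 and Stk31, with 5 peaks in all. With scores of at least 80, the cutoff stated by the study, 2 of 9 windows (Sycp1 and Tdrd1) and 0 of 9 promoters were left in WT, and 0 of 9 of both in Kap1 KO. At that cutoff the shares of all genes were 8.92% of windows and 1.27% of promoters in WT, and 0.984% and 0.286% in Kap1 KO. With shares this low, a count of 0 in 9 genes does not set them apart. Using all peaks, the share of all genes was 14.1%, and 15.6% among genes of like window length. At promoters it was found in 1 of 9, Dazl, against 2.02% of all genes. In Kap1 KO MEFs 1 of 9 windows held a peak, again that of Dazl, against 2.84% of all genes, and it lay at the promoter, where 0.577% of all genes had one. Counts of this size rest on single peaks. None of the 5 WT peaks shared a base with a Kap1 KO peak. Over the whole lists 462 of 14425 WT peaks did, or 3.20% (95% exact Clopper-Pearson confidence interval 2.92% to 3.50%, counting error only), so that unshared peaks were the rule across the genome as well.

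**Figure D5:**
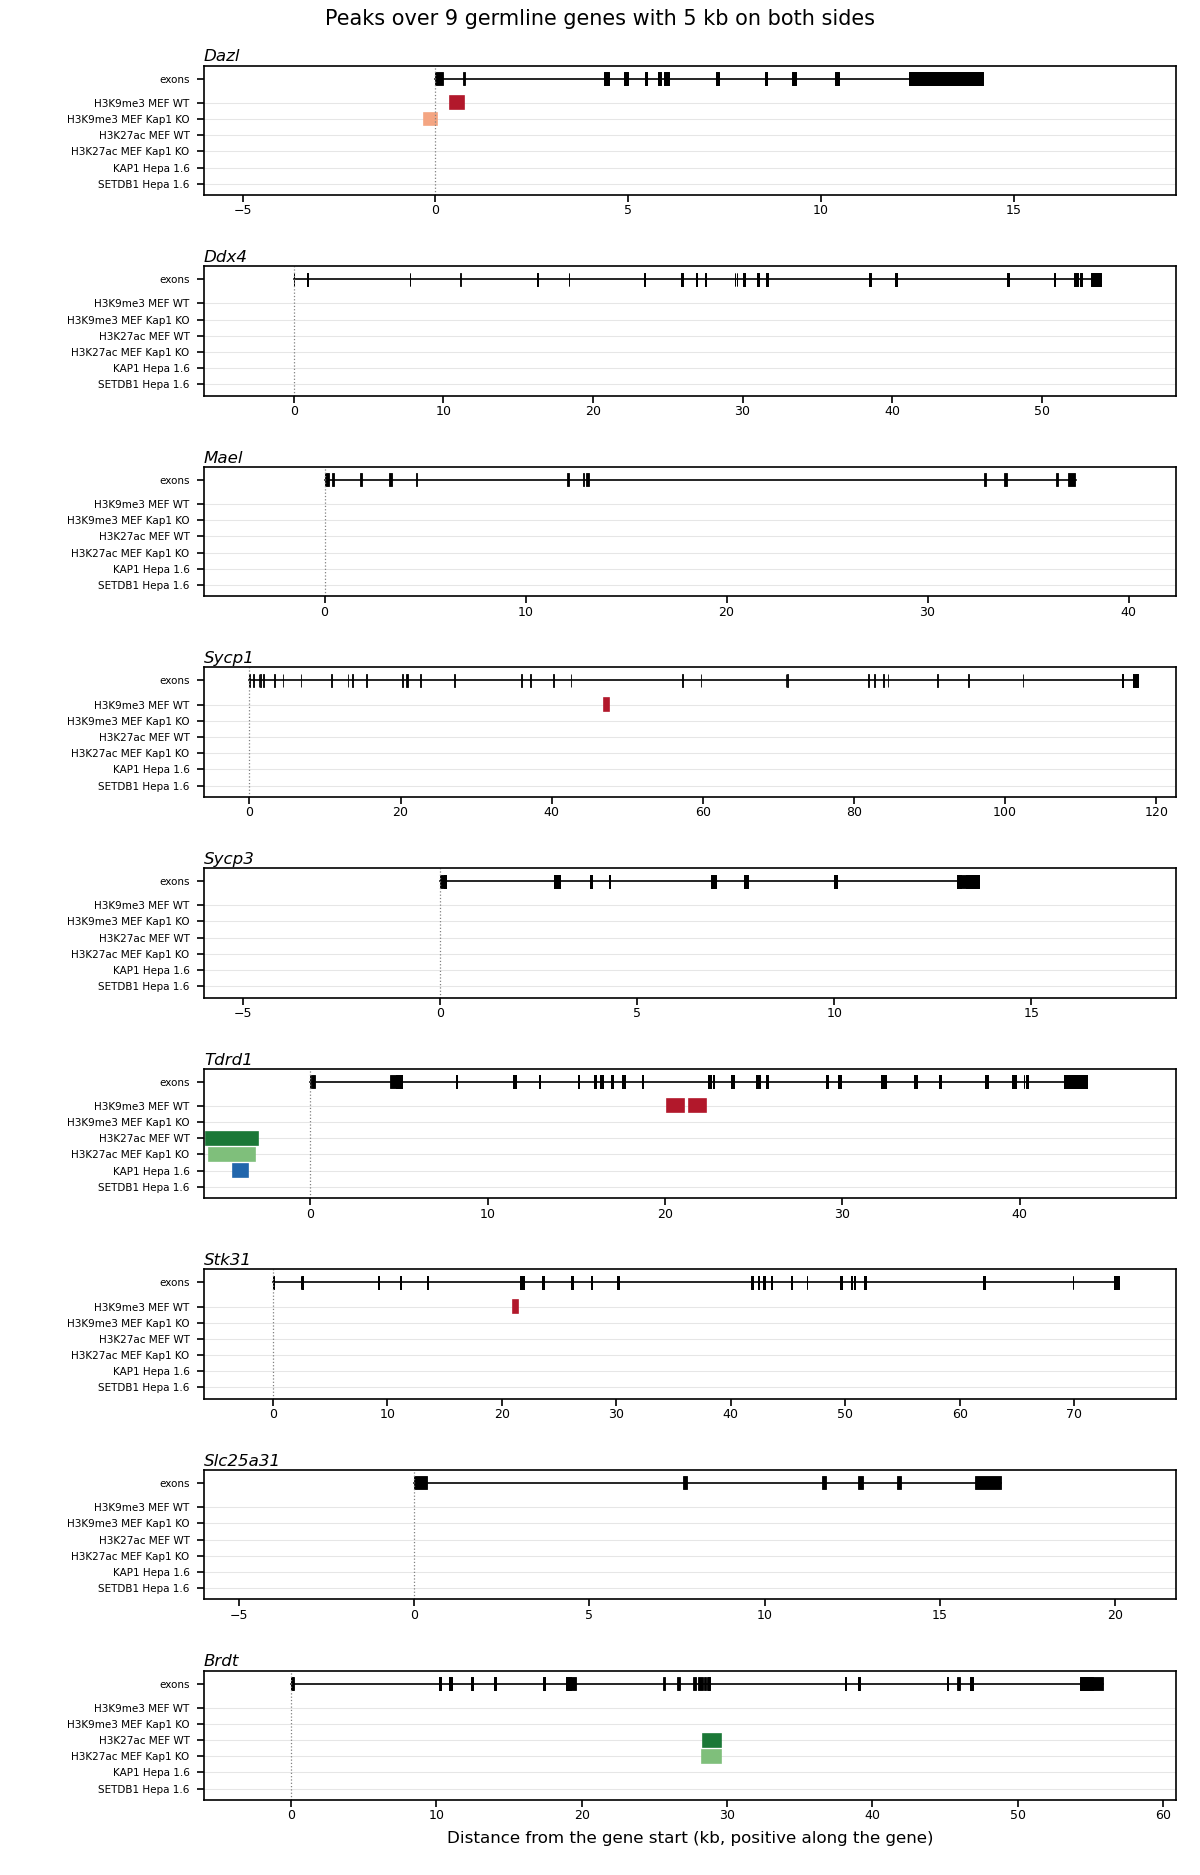
Peaks of the 6 lists (coloured boxes) and GENCODE exons (black boxes) of the 9 germline genes, by distance in kb from the gene start (dotted line), each gene drawn from left to right and with its own scale. Boxes are at least the width of a drawn line. Ddx4, Mael, Sycp3 and Slc25a31 hold no peak of any list.

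Dazl was the member with H3K9me3 at its start. The WT peak, chr17:50432173-50432553 (381 bp), had a score of 66.19, above 36.3% of its list, and lay 371 to 751 bp into the gene. It covered the start of Dazl-202, a shorter coding transcript that begins 707 bp downstream, and lay in the first intron of Dazl-201. The Kap1 KO peak, chr17:50432888-50433223 (336 bp), had a score of 56.52, above 30.1% of its list, and ran from 299 bp before to 36 bp after the start of Dazl-201. The 2 peaks were 334 bp apart. Both scores were below 80, the cutoff score that the methods of the study state, while the lowest scores in the H3K9me3 lists were 50.01 and 50.03.

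The stretch of the Kap1 KO peak of Dazl before the gene start (chr17:50432925-50433223, minus strand) is shown because it is the only promoter of the 9 with H3K9me3 over its start. Capitals would mark an E-box or E2F core, and there is none in it.
Dazl: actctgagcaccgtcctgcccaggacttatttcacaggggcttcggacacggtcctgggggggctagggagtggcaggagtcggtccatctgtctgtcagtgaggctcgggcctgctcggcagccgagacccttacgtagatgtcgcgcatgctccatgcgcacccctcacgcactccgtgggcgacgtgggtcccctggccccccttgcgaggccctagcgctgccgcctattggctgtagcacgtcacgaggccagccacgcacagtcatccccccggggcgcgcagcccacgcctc

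To describe the sequence under the peaks without a repeat annotation, each run of 24 bases in them was counted over the assembled chromosomes of mm9, on both strands. Both Dazl peaks were made of single-copy sequence, with 0% of their runs present 10 or more times, and were rich in CpG, with a ratio of 0.81 in WT and 0.78 in Kap1 KO. Over the H3K9me3 lists, the median share of runs with 10 or more copies was 15.6% in WT (quartiles 1.54% and 55.9%). In Kap1 KO it was 4.91% (quartiles 0% and 37.9%), so that a share of 0% was common in that list.

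Away from promoters, 3 other members had H3K9me3 peaks in WT MEFs, in each case in an intron. In Sycp1 the peak lay at chr3:102692406-102693085 (680 bp), with a score of 119.36, above 73.5% of the list, and its middle was 47278 bp into the gene. Of its 24-base runs 90.0% were present 10 or more times in the genome, with a median of 2063 copies, and its CpG ratio was 0.26. In Stk31 the peak lay at chr6:49366570-49367029 (460 bp), with a score of 68.53, above 39.2% of the list, 21196 bp into the gene. There 62.2% of the runs were present 10 or more times, with a median of 24 copies and a CpG ratio of 0.24. Both peaks thus lay over sequence that recurs across the genome, unlike those of Dazl. For the ChIP-seq reads, the methods of the study state no filter for unique mapping. Reads from other copies may therefore have been placed at the introns of Sycp1 and Stk31, which was not tested. The middle 300 bases of the Sycp1 peak (chr3:102692596-102692895, minus strand) are shown as the most repeated sequence under a peak of the 9 genes.
Sycp1: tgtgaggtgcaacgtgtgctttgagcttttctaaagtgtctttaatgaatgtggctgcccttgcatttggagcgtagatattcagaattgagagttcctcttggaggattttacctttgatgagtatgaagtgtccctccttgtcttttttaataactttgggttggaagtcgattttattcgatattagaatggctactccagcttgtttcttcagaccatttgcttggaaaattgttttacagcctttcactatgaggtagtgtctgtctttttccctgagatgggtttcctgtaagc

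Tdrd1 had the 2 H3K9me3 peaks of highest score among the 9 genes. The first, chr19:56920810-56921758 (949 bp), had a score of 160.78, above 83.8% of the list, and the second, chr19:56922043-56922996 (954 bp), a score of 190.95, above 88.1%. They lay 284 bp apart in an intron, more than 20 kb from the gene start and from the H3K27ac peak before the gene. The first was nearly single-copy, with 1.84% of runs at 10 or more copies. In the second 47.5% of runs reached 10 copies, yet 0% did so when copies inside the Tdrd1 window were left out. Shifted by 36 bp against itself, the second peak was identical at 84.5% of its bases, the pattern of a tandem repeat, and none of its runs had a copy elsewhere in the assembled chromosomes. Its middle 300 bases (chr19:56922370-56922669, plus strand) show the repeated unit.
Tdrd1: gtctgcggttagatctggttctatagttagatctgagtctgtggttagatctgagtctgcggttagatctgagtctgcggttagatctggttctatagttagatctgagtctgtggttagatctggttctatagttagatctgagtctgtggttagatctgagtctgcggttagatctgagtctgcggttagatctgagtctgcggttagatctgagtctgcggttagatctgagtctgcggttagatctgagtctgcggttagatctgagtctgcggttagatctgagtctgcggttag

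The nearest H3K9me3 peak to the other starts was, in WT, 58.6 kb away in Mael, 74.2 kb in Sycp3, 176 kb in Ddx4, 218 kb in Slc25a31 and 390 kb in Brdt. The median of the 9 was 58.6 kb against 84.1 kb over all genes, and 3 of the 9 lay farther than that value. In Kap1 KO the median of the 9 was 588 kb against 826 kb over all genes, and 4 lay farther. Both distances were longer in Kap1 KO, where the list is shorter.

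In Hepa 1.6, KAP1 was found in 1 of the 9 windows, that of Tdrd1, against 30.7% of all genes, and in 35.0% of genes of like window length. None of the 9 promoters carried it, against 17.3% of all genes and 30.3% of those in the same CpG range. SETDB1 was listed in 0 of 9 windows, against 5.47% of all genes, and at 0 of 9 promoters, against 1.48%. Since every SETDB1 entry is also a KAP1 entry, this list cannot show SETDB1 away from KAP1, and a count of 0 covers KAP1 peaks with SETDB1 only. The KAP1 peak of Tdrd1, chr19:56896341-56897171 (831 bp), had a score of 140, above 45.8% of the list. It lay inside the stretch covered by the H3K27ac peaks of MEFs, at the start of A630007B06Rik, and was not in the SETDB1 list. KAP1 was thus not listed at any intron with an H3K9me3 peak in WT MEFs. However, the 2 cell types differ, and KAP1 in MEFs was not analysed here.

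The nearest KAP1 peak was 3.53 kb from the start of Tdrd1, 27.8 kb from Stk31, 44.2 kb from Dazl, 59.3 kb from Sycp1 and 62.4 kb from Mael. It was 77.4 kb from Ddx4, 83.8 kb from Slc25a31, 106 kb from Brdt and 191 kb from Sycp3. The median of all genes was 45.6 kb, and 6 of the 9 members lay farther than that. For SETDB1 the distances ran from 62.4 kb (Mael) to 1035 kb (Brdt) with a median of 191 kb, against 303 kb over all genes, and 2 of the 9 lay farther.

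Counting all 4 MEF lists together, 8 of the 9 promoters had no peak, Dazl being the exception, against 44.8% of all genes. Ddx4, Mael, Sycp3 and Slc25a31 had none in the whole window, 4 of 9 against 27.9% of all genes, and they had no KAP1 or SETDB1 peak either. The 4 genes without a peak encode a helicase, a piRNA factor, a component of the synaptonemal complex and a mitochondrial carrier. They belong to several roles, as the 9 genes do, and a missing peak is no measure of a missing mark.

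A wider list of 58 germline genes, of which 57 were matched (not Tdrd5), was taken as the pathway around the 9. H3K27ac lay at 5 of its 57 promoters in WT and 7 in Kap1 KO, or 8.77% and 12.3%, against 52.0% and 50.6% of all genes. H3K9me3 lay at 2 and 0 of them, against 2.02% and 0.577%. H3K27ac lay in 20 of its windows in WT and 24 in Kap1 KO, that is 35.1% and 42.1%, against 64.4% of all genes in both. H3K9me3 lay in 12 of its windows in WT (21.1%, against 14.1% of all genes) and 1 in Kap1 KO (1.75%, against 2.84%). KAP1 lay in 13 (22.8%, against 30.7%) and SETDB1 in 5 (8.77%, against 5.47%). The H3K9me3 promoters in WT were those of Gtsf1, a piRNA factor (score 150.15), and of Tex15, required for meiotic recombination and piRNA silencing (score 115.68). Gtsf1 lacked a promoter H3K27ac peak in WT and had one in Kap1 KO, with a score of 741.36, whose middle lay 2002 bp into the gene. Spo11, the enzyme that makes the meiotic double-strand breaks, also had an H3K27ac promoter peak in Kap1 KO and not in WT, with a score of 942.96, as did Tnp2, which encodes a transition protein of spermatids, with a score of 3100. In the other direction, Tdrkh, a Tudor protein of the piRNA pathway, had one in WT, with a score of 180.72, and not in Kap1 KO. Gtsf1, Spo11, Tnp2 and Tdrkh were all 4 genes of the wider list whose promoter call of H3K27ac differed between the lists, and they were singled out for that. The differences rest on 1 library per genotype and were not tested, and 0 of the 9 genes gained a promoter peak of H3K27ac. The share of all genes whose promoter call differed was not taken, so these counts cannot be called high or low. Over the whole H3K27ac lists, 77.2% of the peaks of each genotype shared a base with the other list. The promoter peaks of highest score were those of Tdrd7, Msh5, Tex14 and Prdm9 in WT (scores 3100, 3100, 3100 and 2249.92) and of Msh5, Tex14, Tnp2 and Prdm9 in Kap1 KO (scores 3100, 3100, 3100 and 2633.5). Those of Msh5, Tex14 and Tnp2 lay within 1 kb of the start of a neighbouring gene, among them Clic1, Rad51c and Socs1.

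KAP1 in Hepa 1.6 was found at 6 of the 57 promoters (10.5%, against 17.3% of all genes), those of Fkbp6, Tex19.1, Stag3, Prdm9, Boll and Tex14. Their scores were 2374, 111, 169, 134, 157 and 100 in that order, and Fkbp6, a co-chaperone of the piRNA pathway, was also the 1 promoter of the SETDB1 list. The peaks at Stag3 and Tex14 lay within 1 kb of the start of a neighbouring gene, Gpc2 and Rad51c. The E-box was found in 12 of the 57 promoters, or 21.1%, against 7.79% of all genes. It was in 6 of 15 piRNA genes, 4 of 20 meiotic genes, 2 of 12 genes of germ cell fate and RNA binding and 0 of 10 spermatid genes. The E2F core was also found in 12 of the 57 promoters, or 21.1%, against 24.4% of all genes. Both motifs were in 2 of the 57, or 3.51%, against 2.52% of all genes. The median CpG ratio of the wider list was 0.54, close to that of all genes and below those of the 9 members, and 0.16 in its spermatid genes, which include those for protamines and transition proteins.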

How the data were processed

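The authors mapped reads to mm9 with Bowtie 2 (version 2.2.1 per the labels) with its sensitive-local setting, ran MACS 1.4 with total input as the control, and deposited 1 peak list per library, without read counts. Since the SETDB1 list repeats KAP1 entries with their scores, it may not be a MACS call of the SETDB1 library itself. The deposited score was used as given. The study states a cutoff score of 80, and the MEF lists reach down to 50. Other samples of the series (12 of 18) were not analysed here. The 9 genes, the wider germline list, the markers and the tests were chosen with earlier results of these data known.

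Genes and starts were those of the GENCODE annotation of mm9 (NCBIM37). Windows reached 5 kb and promoters 1 kb to both sides, with an overlap of at least 1 bp. Sequences were read from mm9. RefSeq promoters of GRCm38 were matched to mm9 by sequence to check the starts: each RefSeq promoter of the 9 genes matched once, and each gene had a RefSeq start within 35 bp of the GENCODE start. All 9 genes are named. Genes of the wider list are named when they had a promoter peak of H3K9me3 or KAP1 (at most 6 per list by score) or H3K27ac (at most 4). The H3K27ac values of Gtsf1, Spo11 and Tdrkh were chosen after their values were seen. With 1 library per condition no test was run, and counts were set beside the share of all genes. The alternatives changed the score threshold, the overlap, the interval, the start and the number of peaks, and that with RefSeq starts was added after the data were seen. Overlap and copy counting were tested on simulated data. Python 3.11.15, numpy 2.4.6, numba 0.67.0, scipy 1.17.1, samtools 1.23.1 and matplotlib 3.10.9 were used.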

Additional observations from a re-analysis of the deposited data

How the results depend on the processing

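Of 85 values recomputed for 17 results, 60 were identical to the reported ones, 3 stayed within 1.5-fold (for the CpG ratio, within 1 SD of the members) and 22 moved by more. The 3 were H3K9me3 WT windows, from 4 to 5 with 50 kb on both sides, and the E-box and CpG values given below. With 50 kb, 43.5% of all genes had an H3K9me3 peak in WT. With a score of at least 80, and with the 50% of peaks of highest score, WT windows fell from 4 to 2 members (Sycp1 and Tdrd1), and WT promoters, Kap1 KO windows and Kap1 KO promoters each fell from 1 to 0, since the Dazl peaks and that of Stk31 score below 80. With the upper 50% of peaks, the shares of all genes were 8.93% of windows and 1.27% of promoters in WT, and 1.41% and 0.367% in Kap1 KO. Taking the 4319 highest peaks in both genotypes likewise left 2 WT windows and 0 WT promoters, against 6.21% and 0.939% of all genes. H3K27ac windows went from 2 to 1 in both genotypes with the upper 50% of peaks and with the gene body alone, and to 7 in both with 50 kb on both sides. The shares of all genes with the upper 50% were 56.3% in WT and 55.6% in Kap1 KO, and with the gene body alone 58.9% and 58.5%. With 50 kb they were 80.1% and 82.2%, so that 7 of 9 was near the share of all genes. The H3K27ac promoter count of 0 became 1 in both genotypes with any annotated transcript start, through the internal start of Brdt, and stayed at 0 under the other alternatives. With any annotated transcript start, the shares of all genes were 54.6% in WT and 53.3% in Kap1 KO. KAP1 windows became 0 with the upper 50% of peaks and with the gene body alone, and 4 with 50 kb, where SETDB1 windows became 1. The shares of all genes for KAP1 were 18.0%, 24.5% and 58.2% in that order, and 16.3% for SETDB1 with 50 kb. With 500 bases on both sides of the start, Dazl also held an E-box, which made 9 members of 9, and the median CpG ratio was 0.72. Neither value was taken over all genes for this stretch, and a longer stretch holds a short motif more often. The 9 of 9 therefore cannot be set beside the 7.79% of all genes, which belongs to the shorter stretch. No paired analysis was possible because each condition had 1 library. Depth is unknown, so that a missing peak is no measure of a missing mark, and 1 gene more or less changes each count of 9 strongly.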
